A study of Homo sapiens with 16 samples.

Results

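Genes of the titin filament and the sarcomeric M-band were followed in cardiomyocytes made from human induced pluripotent stem cells (hiPSC-CMs), in which the long intergenic noncoding RNA LINC00881 was raised or lowered. The 7 members were TTN, OBSL1, MYOM1, MYOM2, MYOM3, SPEG and ALPK3, taken by symbol from the 59385 symbols of the count table. Of these 7, all passed the filter on low counts in both experiments. The libraries came from WTC-11, 1 established human iPS cell line, at day 15 to 35 of culture, with RNA taken 48 to 72 hours after lipofectamine transfection, and total RNA was sequenced. The 4 groups of 4 libraries were LINC00881 overexpression (LINC00881 plasmid), its control (a plasmid for bacterial alkaline phosphatase), LINC00881 knockdown (antisense LNA GapmeR) and its control (scrambled oligonucleotide). Every group thus carried a transfected nucleic acid, and no untransfected group was compared. The submitters call the libraries of a group biological replicates, and since all came from 1 cell line the p-values measure the spread between these cultures.

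The M-band is the transverse structure in the middle of the sarcomere where thick filaments of opposite polarity are linked to each other and to the C-terminal end of titin. Titin, encoded by TTN, is a giant elastic protein that reaches from the Z-disc to the M-band and keeps the thick filament centred. Myomesin (MYOM1), M-protein (MYOM2) and myomesin 3 (MYOM3) are related immunoglobulin- and fibronectin-domain proteins that cross-link myosin and titin there. OBSL1 encodes a cytoskeletal adaptor of the same domain family that binds titin and myomesin at the M-band and also acts with CUL7 and CCDC8 in a ubiquitin ligase complex. SPEG is a striated muscle kinase of the myosin light chain kinase family that acts on proteins of the junction between T-tubules and sarcoplasmic reticulum, and ALPK3 is an alpha-kinase family protein of cardiomyocytes whose loss causes inherited cardiomyopathy. Truncating variants of TTN are a common genetic cause of dilated cardiomyopathy.

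The libraries differed in depth between experiments. Totals were 11272633 to 16415025 counts with LINC00881 plasmid and 9833533 to 13493729 with control plasmid, and 26979162 to 37332620 with GapmeR and 29279325 to 37033017 with scrambled oligonucleotide. LINC00881 was measured at 407 to 477 CPM (counts relative to the library total, scaled by the trimmed mean of M-values, TMM) in the overexpression libraries, against 87.6 to 143 CPM in their controls. In the knockdown libraries it was measured at 11.3 to 26.7 CPM, against 54.8 to 149 CPM in their controls, so every treated library lay on its labelled side. All 10 cardiomyocyte markers examined were detected in every group. Of 9 skeletal muscle markers, 4 had no count with control plasmid and 5 with LINC00881 plasmid. In the deeper oligonucleotide libraries, 1 had no count with scrambled oligonucleotide and 2 with GapmeR. The knockdown experiment was also examined in 2 sets, replicates 1 and 2 being one and replicates 3 and 4 the other, a grouping that the labels do not state and that was taken up with earlier results of these data known. LINC00881 itself changed by -2.85 on the log2 scale in replicates 1 and 2 and by -1.40 in replicates 3 and 4. Its mean with GapmeR was 19 CPM in replicates 1 and 2 and 20.8 CPM in replicates 3 and 4. With scrambled oligonucleotide the means were 138 and 54.9 CPM, so the controls differed more than the GapmeR libraries.

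Promoter windows are shown for the members whose windows shared a run of letters or held a muscle motif. A window of 300 bases (250 before and 50 after the annotated start) was taken from RefSeq on GRCh38.p14 for 6 of the 7 members. SPEG has several annotated starts, and the most upstream was used. Capitals mark the 14-base run that MYOM1 and MYOM3 shared and, in MYOM3, TTN, SPEG and ALPK3, a match to the MEF2 motif, the A/T-rich element bound by MEF2 transcription factors of muscle. In MYOM3 the run and the motif overlap. The MYOM1 window is chr18:3219919-3220218 on the minus strand, MYOM3 is chr1:24112086-24112385 on the minus strand, TTN is chr2:178807374-178807673 on the minus strand, SPEG is chr2:219434593-219434892 on the plus strand and ALPK3 is chr15:84817106-84817405 on the plus strand.
MYOM1: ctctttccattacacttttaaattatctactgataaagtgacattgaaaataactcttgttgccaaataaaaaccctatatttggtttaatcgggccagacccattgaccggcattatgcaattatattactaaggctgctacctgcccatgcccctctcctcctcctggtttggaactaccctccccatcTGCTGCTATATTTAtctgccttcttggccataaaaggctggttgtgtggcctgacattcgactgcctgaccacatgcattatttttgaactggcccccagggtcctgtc
MYOM3: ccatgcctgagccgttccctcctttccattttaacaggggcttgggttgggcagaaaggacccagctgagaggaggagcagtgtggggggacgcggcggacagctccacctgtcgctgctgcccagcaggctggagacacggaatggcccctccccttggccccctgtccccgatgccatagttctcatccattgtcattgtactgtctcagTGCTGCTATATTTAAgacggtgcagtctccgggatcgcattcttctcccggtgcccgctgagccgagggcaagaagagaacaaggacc
TTN: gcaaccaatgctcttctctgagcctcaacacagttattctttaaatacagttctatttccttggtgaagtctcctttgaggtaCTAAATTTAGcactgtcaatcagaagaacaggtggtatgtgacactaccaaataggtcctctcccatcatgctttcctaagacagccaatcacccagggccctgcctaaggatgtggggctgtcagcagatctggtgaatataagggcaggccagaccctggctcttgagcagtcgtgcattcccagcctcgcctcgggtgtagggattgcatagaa
SPEG: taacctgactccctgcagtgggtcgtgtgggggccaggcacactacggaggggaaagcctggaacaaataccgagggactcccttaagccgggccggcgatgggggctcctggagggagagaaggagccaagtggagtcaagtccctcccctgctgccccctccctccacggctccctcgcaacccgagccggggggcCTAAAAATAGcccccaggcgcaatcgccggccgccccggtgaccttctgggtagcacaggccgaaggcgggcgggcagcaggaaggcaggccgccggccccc
ALPK3: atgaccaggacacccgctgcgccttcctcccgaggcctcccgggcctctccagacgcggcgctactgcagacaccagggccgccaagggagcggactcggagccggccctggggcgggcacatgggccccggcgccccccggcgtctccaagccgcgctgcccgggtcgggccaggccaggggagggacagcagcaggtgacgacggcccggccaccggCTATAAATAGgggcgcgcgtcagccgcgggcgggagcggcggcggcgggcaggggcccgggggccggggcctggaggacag

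The run shared by MYOM1 and MYOM3 was TGCTGCTATATTTA, which began 59 bases upstream of the MYOM1 start and 38 bases upstream of the MYOM3 start. It was the longest run common to any pair of the 6 members with a window. MYOM2 had no window and was not compared. Of the 35116 windows searched, 2 (0.0057%), these 2, contained the run. It was picked as the longest match, so its rarity is not separate evidence of a shared element. The MEF2 motif, searched on both strands, was present in 4 of 6 member windows and in 2.99% of all windows searched. Its match was CTAAATTTAG in TTN (167 bases upstream), CTAAAAATAG in SPEG (52 bases upstream), CTATAAATAG in ALPK3 (31 bases upstream, where it overlaps the TATA motif TATAAA) and CTATATTTAA in MYOM3 (33 bases upstream). The M-CAT element CATTCC was found in TTN and MYOM3 (14.0% of windows), the GC box GGGCGG in OBSL1, SPEG and ALPK3 (45%), and the CArG box, by its name, in MYOM1 (1.29%). E-boxes of the form CANNTG were found in 6 of 6 windows but also in 68.7% of all. These matches describe letters in the windows and were chosen for display after the sequences were seen. No binding was measured.

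The members covered a wide range of expression. Per kilobase of exon, MYOM1 stood highest, at 128 ± 2.79 CPM per kb with LINC00881 plasmid and 116 ± 6.45 with control plasmid (SD, n = 4 each). TTN followed at 76.7 ± 8.47 CPM per kb with LINC00881 plasmid and 67 ± 15.4 with control plasmid (SD, n = 4 each). OBSL1 and SPEG were intermediate, at 11.7 ± 0.427 and 6.4 ± 0.177 CPM per kb with LINC00881 plasmid. MYOM2 and ALPK3 were low, at 1.48 ± 0.136 and 0.825 ± 0.0626 CPM per kb in those libraries, and MYOM3 was the lowest at 0.148 ± 0.0294. Both leading genes were lower in the oligonucleotide experiment, which was run on other libraries and was not set against the plasmid experiment in a test. There MYOM1 stood at 30.8 ± 8.96 CPM per kb with GapmeR and 48.8 ± 3.3 with scrambled oligonucleotide (SD, n = 4 each), and TTN at 20.1 ± 2.07 with GapmeR and 28.1 ± 12.7 with scrambled oligonucleotide. OBSL1 stood at 7.75 ± 2.77 CPM per kb with GapmeR and 7.19 ± 1.04 with scrambled oligonucleotide, and SPEG at 3.13 ± 1.27 with GapmeR and 3.13 ± 0.429 with scrambled oligonucleotide. The low genes were MYOM2, at 0.821 ± 0.233 CPM per kb with GapmeR and 1.53 ± 0.211 with scrambled oligonucleotide, ALPK3, at 0.466 ± 0.277 with GapmeR and 0.753 ± 0.591 with scrambled oligonucleotide, and MYOM3, at 0.11 ± 0.114 with GapmeR and 0.192 ± 0.0901 with scrambled oligonucleotide. The order MYOM1, TTN, OBSL1, SPEG, MYOM2, ALPK3, MYOM3 was found in 14 of 16 libraries. MYOM1 exceeded TTN, TTN exceeded OBSL1, OBSL1 exceeded SPEG and SPEG exceeded MYOM2 in 16 of 16. MYOM2 and ALPK3, and ALPK3 and MYOM3, changed places in 1 library each. Lengths here cover all annotated exons of a gene. MYOM1 exceeded TTN by a ratio as small as 1.15, and their order under other lengths was not examined. The ratio of MYOM2 to ALPK3 per kilobase ranged between 0.884 and 5.89. With LINC00881 plasmid, MYOM2 lay at 1.325 to 1.644 CPM per kb and ALPK3 at 0.7503 to 0.9029, without overlap. In each of the other groups the ranges of MYOM2 and ALPK3 overlapped.

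**Figure D1:**
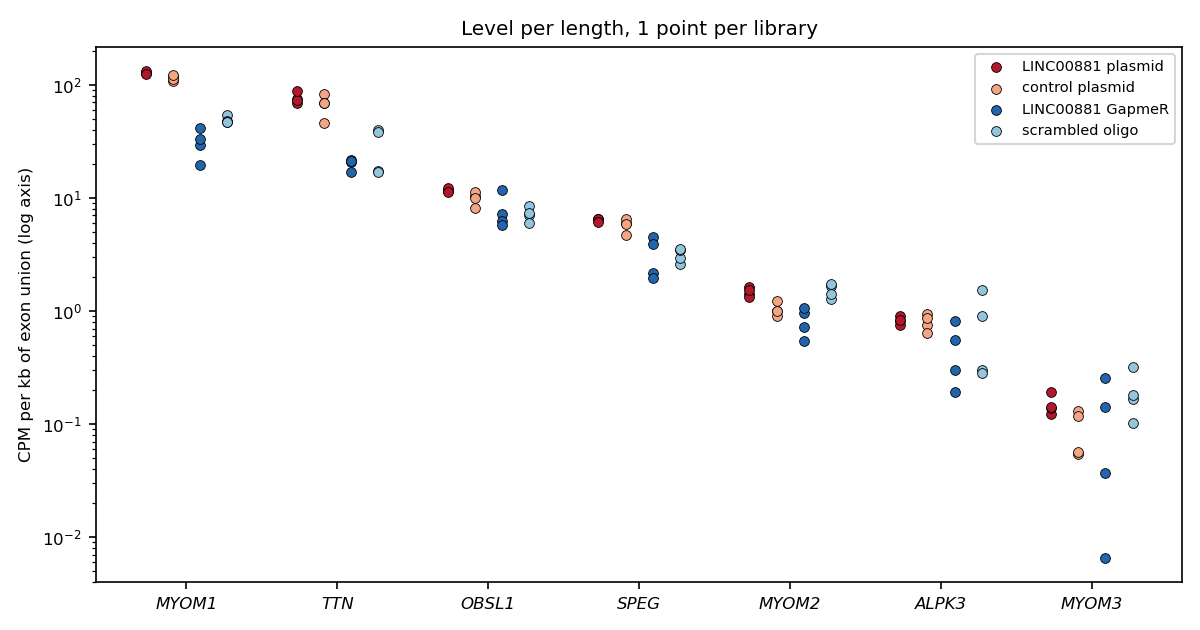
Level of the 7 genes per kilobase of exon (vertical log axis, CPM per kb) in each of the 16 libraries, with LINC00881 plasmid, control plasmid, LINC00881 GapmeR and scrambled oligonucleotide shown from left to right for each gene. MYOM1 and TTN stand above the others in every library, and MYOM3 is at the bottom in 15 of 16.

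In raw counts, the members ranged between 67080 and 184323 reads for TTN, 4268 and 14223 for MYOM1, 786 and 3753 for OBSL1, and 845 and 2669 for SPEG. MYOM2 had 65 to 471 reads, ALPK3 71 to 646 and MYOM3 only 2 to 91. TTN alone took 0.19% to 1.06% of all counts in a library. Because the gene has 118976 bases of exon over 304814 bases of the genome, its share was not read as a level without dividing by length. Values of MYOM3 rest on few reads, and differences in this gene are the least precise of the 7.

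LINC00881 overexpression was compared with its control plasmid to ask whether M-band transcripts respond to more of the RNA. MYOM2, MYOM3, OBSL1 and MYOM1 rose at the study's cutoff of p under 0.05, taken here without adjustment, in edgeR's quasi-likelihood test, and TTN, SPEG and ALPK3 did not pass it. Of the 7 members, 4 passed in the higher direction and 0 in the lower, while 5.87% of the 14355 genes tested passed in the higher and 6.23% in the lower direction. The median log2 fold change was 0.19 over the members and 0.0033 over all genes tested. After Benjamini-Hochberg adjustment over all genes no member passed in edgeR, where 0.00697% of genes did (1 gene). With the same adjustment DESeq2 called 57 genes and no member, and limma-voom called 205 genes, OBSL1 and MYOM2 among them. The count of 4 was 2 without LINC00881 overexpression replicate 2, 3 or 4, and 1, MYOM2, when all 16 libraries shared 1 estimate of the spread.

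MYOM2 had the smallest p of the 7 members. It was measured at 10.0, 9.36, 11.6 and 10.7 CPM with LINC00881 plasmid, against 7.06, 8.60, 6.44 and 7.03 CPM with control plasmid, in replicates 1 to 4. Every overexpression library lay above every control library. The log2 fold change was 0.52 (standard error 0.13, unadjusted p = 0.00052, adjusted p = 0.24 from edgeR). The study named MYOM2 from these same libraries and from the knockdown libraries below, so neither change is independent evidence. M-protein is known from adult heart and fast skeletal muscle, where it is found beside myomesin.

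MYOM1 was measured at 841, 829, 865 and 823 CPM with LINC00881 plasmid, against 714, 785, 740 and 807 CPM with control plasmid. The groups again did not overlap, but the nearest libraries, 823 and 807 CPM, were close. The log2 fold change was 0.14 (standard error 0.06, unadjusted p = 0.040, adjusted p = 0.39 from edgeR), and it passed the cutoff in only 2 of the 8 fits that left out 1 library. MYOM3 was counted 14, 20, 21 and 18 times with LINC00881 plasmid and 5, 16, 11 and 6 times with control plasmid. In CPM this was 1.14, 1.77, 1.28 and 1.30 with LINC00881 plasmid, against 0.504, 1.20, 1.09 and 0.527 with control plasmid, and the lowest overexpression library lay below the highest control. MYOM3 changed by 0.68 (standard error 0.31, unadjusted p = 0.041, adjusted p = 0.40 from edgeR), and passed in 3 of the 8 fits without 1 library.

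OBSL1 was measured at 112, 113, 118 and 108 CPM with LINC00881 plasmid, against 99.7, 108, 77.9 and 96.2 CPM with control plasmid. Its groups did not overlap, though replicate 4 with LINC00881 plasmid and replicate 2 with control plasmid were within 1 CPM of each other. OBSL1 changed by 0.24 on the log2 scale (standard error 0.08, unadjusted p = 0.0082, adjusted p = 0.30 from edgeR) and stayed past the cutoff in 8 of 8 fits without 1 library, but not with offsets on length and GC (0.09, unadjusted p = 0.15). Groups did not overlap for 7.25% of all genes tested in this experiment, and among the members for MYOM1, MYOM2 and OBSL1, all higher.

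TTN was measured at 8990, 8175, 8796 and 10550 CPM with LINC00881 plasmid, against 9961, 5520, 8225 and 8199 CPM with control plasmid. The control libraries spanned most of the overexpression range, with replicate 1 high and replicate 2 low. The log2 fold change was 0.19 (standard error 0.14, unadjusted p = 0.20 in edgeR), and it was 0.31 (unadjusted p = 0.014) without control replicate 1 and 0.051 (unadjusted p = 0.53) without control replicate 2. SPEG stood at 115, 117, 116 and 110 CPM with LINC00881 plasmid, against 109, 118, 83.7 and 106 CPM with control plasmid, a log2 fold change of 0.14 (standard error 0.08, unadjusted p = 0.11 in edgeR). Control replicate 3 was the lowest, and control replicates 1 and 4 also lay below every overexpression library. Control replicate 2 lay above them all. ALPK3 stood at 9.88, 8.92, 8.21 and 9.08 CPM with LINC00881 plasmid, against 10.4, 8.30, 7.04 and 9.58 CPM with control plasmid, and the groups overlapped throughout (log2 fold change 0.03, standard error 0.13).

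**Figure D2:**
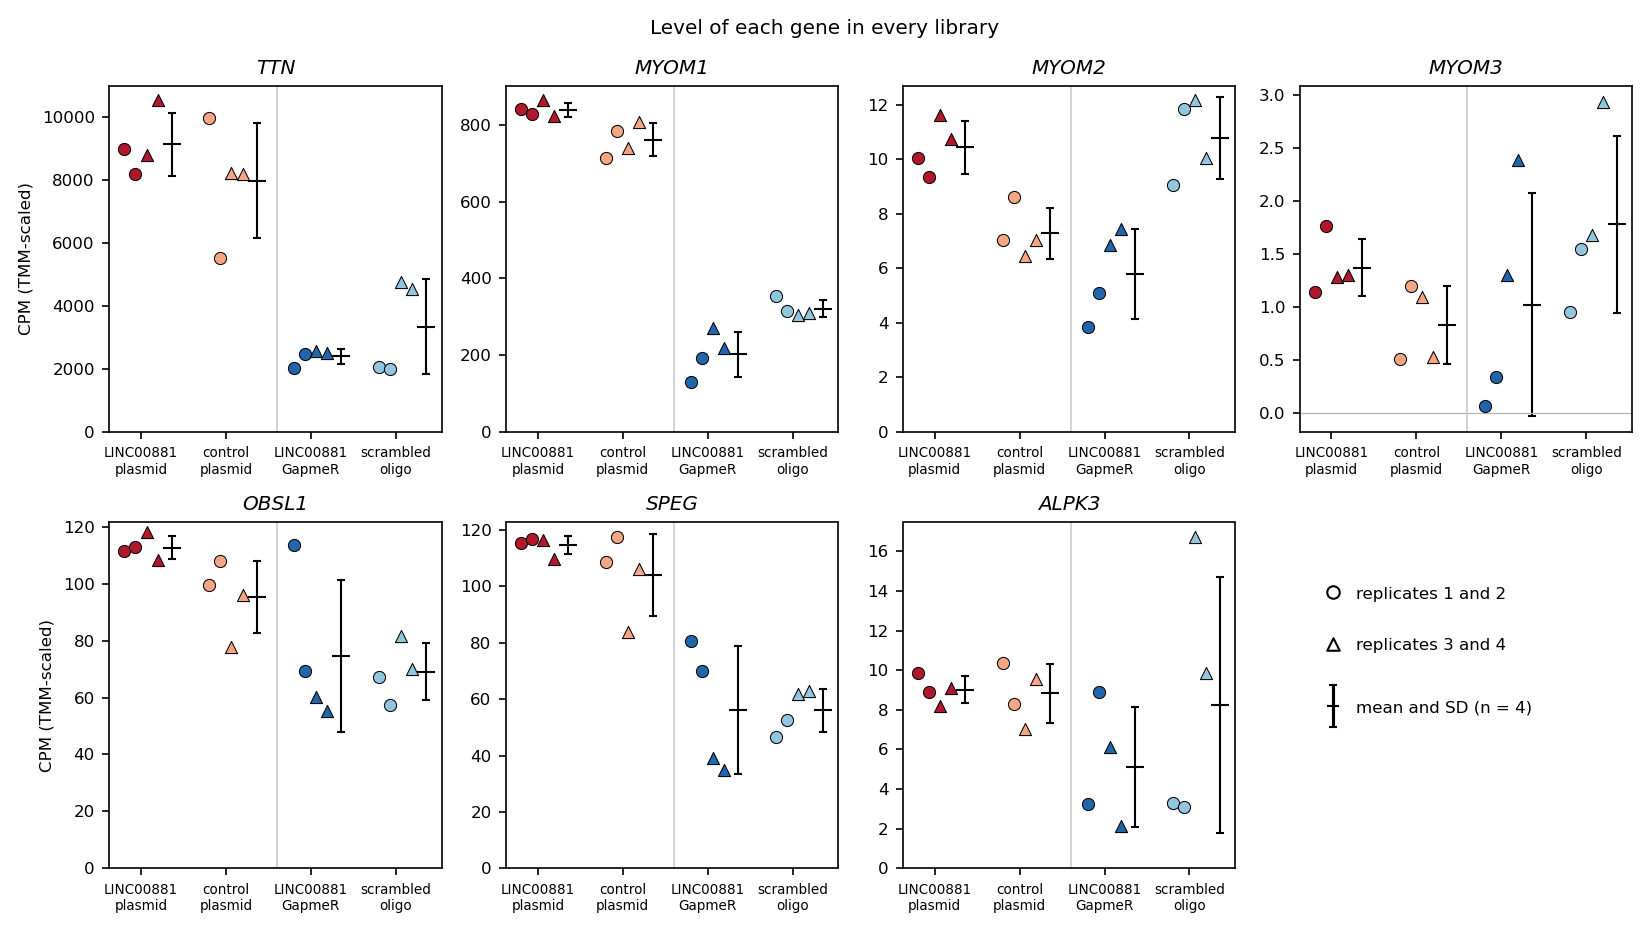
Level of each gene in CPM (vertical axis, linear from 0, with a margin below 0 for MYOM3) in every library, with LINC00881 plasmid left of control plasmid and LINC00881 GapmeR left of scrambled oligonucleotide; circles are replicates 1 and 2, triangles replicates 3 and 4, and the bars give mean and SD (n = 4). MYOM2 does not overlap between treated and control libraries in either experiment, and the scrambled oligonucleotide controls of TTN and ALPK3 split by replicate.

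LINC00881 knockdown was compared with scrambled oligonucleotide to ask whether loss of the RNA moves the same transcripts. MYOM1 and MYOM2 fell, and the other 5 members did not pass the cutoff over the 4 against 4 libraries. Thus 0 members were called higher and 2 lower, while 4.2% of the 18127 genes tested were called higher and 4.15% lower. The members' median log2 fold change was -0.66, against -0.0065 over all genes. No gene passed after adjustment in edgeR (0% of genes), none of the members did in DESeq2, which called 194 genes, and limma-voom called 0 genes.

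MYOM1 was measured at 129, 192, 270 and 219 CPM with GapmeR, against 353, 315, 306 and 310 CPM with scrambled oligonucleotide. The knockdown libraries all lay below the controls and were more spread among themselves, with a standard deviation of 0.45 on the log2 scale, against 0.095 in the controls. MYOM1 changed by -0.66 (standard error 0.20, unadjusted p = 0.0079, adjusted p = 0.46 from edgeR). MYOM2 was measured at 3.84, 5.08, 6.84 and 7.43 CPM with GapmeR, against 9.05, 11.9, 12.2 and 10.0 CPM with scrambled oligonucleotide. It too had no overlap, and changed by -0.89 (standard error 0.26, unadjusted p = 0.0073, adjusted p = 0.46 from edgeR). Both calls held in each of the 8 fits without 1 library. Groups without overlap made up 6.44% of all genes tested with knockdown, and MYOM1 and MYOM2 were the members among them.

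MYOM3 was counted 2, 11, 36 and 91 times with GapmeR, against 31, 54, 65 and 90 times with scrambled oligonucleotide. Replicates 1 and 2 with GapmeR were low. In CPM, replicate 4 with GapmeR, at 2.38, lay below control replicate 4, at 2.94, but above every other control. The groups thus overlapped (log2 fold change -0.79, standard error 0.86, unadjusted p = 0.38 in edgeR). TTN was measured at 2028, 2486, 2560 and 2504 CPM with GapmeR, against 2064, 2008, 4768 and 4538 CPM with scrambled oligonucleotide. The 4 knockdown libraries were alike and the controls were not, as control replicates 3 and 4 stood above the other 6 libraries. The TTN change was -0.48 (standard error 0.29, unadjusted p = 0.13 in edgeR), and -0.65 (unadjusted p = 0.037) or -0.66 (unadjusted p = 0.033) without control replicate 1 or 2. It was -0.26 (unadjusted p = 0.37) or -0.30 (unadjusted p = 0.33) without control replicate 3 or 4.

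OBSL1 was measured at 114, 69.3, 60.1 and 55.2 CPM with GapmeR, against 67.3, 57.4, 81.6 and 69.98 CPM with scrambled oligonucleotide. Replicate 1 with GapmeR was the highest of the 8 libraries and replicate 4 with GapmeR the lowest. SPEG, whose gene lies on chromosome 2 between 219434846 and 219498287, near OBSL1 at 219550729 to 219571859 (GRCh38), stood at 80.7, 69.9, 39.1 and 34.7 CPM with GapmeR, against 46.8, 52.7, 61.9 and 62.8 CPM with scrambled oligonucleotide. Its GapmeR libraries lay above all controls in replicates 1 and 2 and below all controls in replicates 3 and 4. Over all 8 libraries OBSL1 changed by 0.11 (standard error 0.23) and SPEG by 0.00 (standard error 0.27). ALPK3 stood at 3.27, 8.89, 6.12 and 2.12 CPM with GapmeR, against 3.28, 3.12, 16.7 and 9.85 CPM with scrambled oligonucleotide, with no separation of the groups (log2 fold change -0.69, standard error 0.62). The ALPK3 value was -0.09 without control replicate 3 and ranged to -1.10 when another library was left out.

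Within replicates 1 and 2, against the 2 controls of the same numbers, the knockdown comparison gave a different picture. MYOM1 (-1.06, standard error 0.19, adjusted p = 0.016), MYOM2 (-1.23, standard error 0.28, adjusted p = 0.031) and MYOM3 (-2.63, standard error 0.80, unadjusted p = 0.010) fell in a fit of group by set in edgeR. SPEG (0.60, standard error 0.15, adjusted p = 0.041) and OBSL1 (0.55, standard error 0.22, unadjusted p = 0.038) rose. TTN (0.15, standard error 0.10) and ALPK3 (0.92, standard error 0.59) did not pass. The 3 members called lower and 2 called higher stand beside 13.7% of all genes called lower and 13.4% called higher at the unadjusted cutoff in these libraries.

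Within replicates 3 and 4 MYOM2 fell again, and with it TTN, ALPK3 and SPEG. TTN (-0.88, standard error 0.10, adjusted p = 0.012 from edgeR), SPEG (-0.76, standard error 0.15, adjusted p = 0.051), ALPK3 (-1.70, standard error 0.59, unadjusted p = 0.020) and MYOM2 (-0.64, standard error 0.27, unadjusted p = 0.044) were lower at the unadjusted cutoff. MYOM1 (-0.33, standard error 0.19), OBSL1 (-0.39, standard error 0.22) and MYOM3 (-0.32, standard error 0.69) did not pass. The 4 members called lower and 0 called higher compare with 8.26% and 6.95% of all genes. MYOM2 was thus the 1 member past the cutoff in the same direction in both sets.

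The difference between the sets was tested as the interaction in the same edgeR fit. The knockdown effect of TTN was lower by 1.03 in replicates 3 and 4 than in replicates 1 and 2 (-1.03, standard error 0.15, adjusted p = 0.0099), and that of SPEG changed sign (-1.35, standard error 0.21, adjusted p = 0.012). ALPK3 (-2.62, standard error 0.84, unadjusted p = 0.013), OBSL1 (-0.95, standard error 0.32, unadjusted p = 0.017) and MYOM1 (0.73, standard error 0.26, unadjusted p = 0.023) differed at the unadjusted cutoff. MYOM2 (0.59, standard error 0.38, unadjusted p = 0.16) and MYOM3 (2.31, standard error 1.05, unadjusted p = 0.057) did not. The 5 members that differed, 2 of them after adjustment, stand beside 22.7% of all genes at the unadjusted cutoff and 5.67% after adjustment. Without control replicate 3 the count of members fell to 2.

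For some members the control libraries differed between the sets. In replicates 1 and 2 TTN averaged 2260 CPM with GapmeR and 2040 CPM with scrambled oligonucleotide, and in replicates 3 and 4 it averaged 2530 CPM with GapmeR and 4650 CPM with scrambled oligonucleotide. ALPK3 averaged 6.08 CPM with GapmeR in replicates 1 and 2 and 4.12 CPM in replicates 3 and 4, while its controls averaged 3.2 and 13.3 CPM. For MYOM1 the GapmeR libraries differed more than the controls, since it averaged 160 and 245 CPM with GapmeR in the 2 sets and 334 and 308 CPM with scrambled oligonucleotide. MYOM3 differed in both groups, at 0.199 and 1.84 CPM with GapmeR and 1.25 and 2.31 CPM with scrambled oligonucleotide. SPEG also differed in both groups, at 75.3 and 36.9 CPM with GapmeR and 49.7 and 62.3 CPM with scrambled oligonucleotide.

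Markers of other cells and states differed between the sets too. The 10 cardiomyocyte markers summed to 13600 to 14700 CPM with GapmeR and 22400 to 22800 with scrambled oligonucleotide in replicates 1 and 2, and to 17500 to 17900 with GapmeR and 17300 to 17900 with scrambled oligonucleotide in replicates 3 and 4. The 3 proliferation markers summed to 114 to 154 CPM with GapmeR and 171 to 188 with scrambled oligonucleotide in replicates 1 and 2, against 276 to 294 with GapmeR and 99.2 to 103 with scrambled oligonucleotide in replicates 3 and 4. All 3 had a higher knockdown effect in replicates 3 and 4, CCNB1 by 1.86 (adjusted p = 0.0042 from edgeR), TOP2A by 2.16 (adjusted p = 0.019) and MKI67 by 1.45 (unadjusted p = 0.0070). The 6 smooth muscle markers summed to 281 to 334 CPM with GapmeR and 473 to 506 with scrambled oligonucleotide in replicates 1 and 2, and to 1240 to 1270 with GapmeR and 1000 to 1040 with scrambled oligonucleotide in replicates 3 and 4. The effect was higher in replicates 3 and 4 for 4 of these 6, among them ACTA2 (1.28, adjusted p = 0.0035), and for 6 of the 10 cardiomyocyte markers, with none lower in either list. Their part in the set differences of TTN, SPEG, ALPK3, OBSL1 and MYOM1 was not tested.

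**Figure D3:**
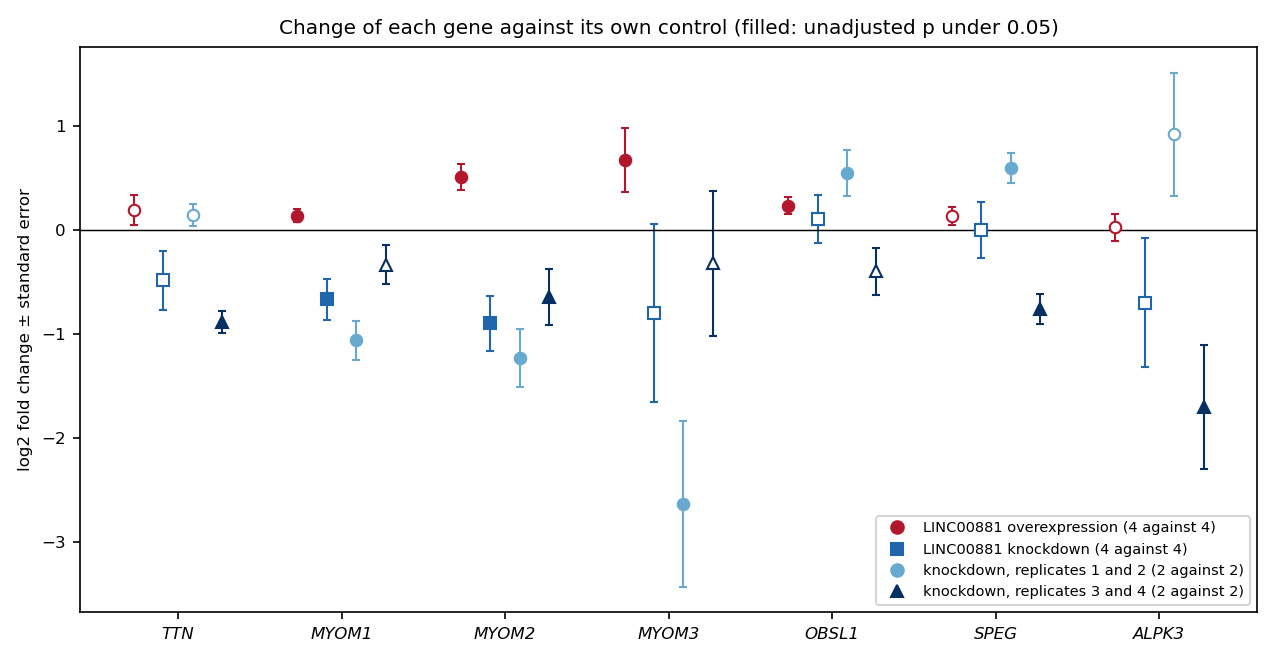
Log2 fold change with its standard error (vertical axis) of each gene for LINC00881 overexpression against control plasmid, LINC00881 knockdown against scrambled oligonucleotide over 4 against 4 libraries, and knockdown within replicates 1 and 2 and within replicates 3 and 4; filled symbols passed the unadjusted cutoff. The knockdown values of MYOM1, MYOM2 and MYOM3 are below 0 in both sets, whereas those of TTN, OBSL1, SPEG and ALPK3 lie above 0 in replicates 1 and 2 and below 0 in replicates 3 and 4.

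Overexpression and knockdown share no library, so the difference of their effects could be tested in 1 edgeR fit of all 16 libraries. MYOM2 differed by 1.41 (standard error 0.29, unadjusted p = 0.00014, adjusted p = 0.066) and MYOM1 by 0.80 (standard error 0.21, unadjusted p = 0.0014, adjusted p = 0.13), both higher with overexpression and lower with knockdown. The study named MYOM2 among genes changed in opposite directions by the 2 treatments in these same libraries. The MYOM2 difference is therefore not independent evidence. TTN differed by 0.67 (standard error 0.35, unadjusted p = 0.073), and OBSL1 (0.12), MYOM3 (1.5), SPEG (0.13) and ALPK3 (0.72) did not pass. Of the 7 members 2 passed at the unadjusted cutoff and 0 after adjustment, beside 11.1% and 0.0956% of the 17782 genes tested.

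Ratios of 2 genes in a library do not depend on the scaling. MYOM2 counts were 1.19%, 1.13%, 1.34% and 1.30% of MYOM1 counts with LINC00881 plasmid, against 0.988%, 1.10%, 0.871% and 0.871% with control plasmid. Each overexpression library lay above each control, a mean difference of 0.37 in the log2 ratio (exact permutation test, 2-sided, p = 0.0286, the smallest that 4 against 4 libraries allow, adjusted p = 0.114 over 8 tests). OBSL1 counts were 96.7%, 96.7%, 101% and 98.4% of SPEG counts with LINC00881 plasmid, against 91.9%, 91.7%, 93.0% and 90.5% with control plasmid, likewise without overlap (log2 difference 0.099, exact permutation test, p = 0.0286, adjusted p = 0.114). With knockdown the MYOM2 to MYOM1 ratio changed by -0.22 (exact permutation test, p = 0.257), so the fall of the 2 genes was not distinguished in size. The other ratios, MYOM3 to MYOM1 and TTN-AS1 to TTN in both experiments and OBSL1 to SPEG with knockdown, had p of 0.229 or more in the exact permutation test.

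The counts are named as unstranded, in which case reads of genes on opposite strands cannot be told apart in shared exons. How reads in such exons were assigned or left out is not stated. The antisense gene TTN-AS1 shares 11381 bases, 9.57% of the exon bases of TTN (chromosome 2, 178525989 to 178830802, minus strand, GRCh38). It was measured at 8.33 to 15.4 CPM with LINC00881 plasmid and 10.6 to 16.7 CPM with control plasmid, at 5.02 to 11.7 CPM with GapmeR and 3.22 to 16.7 CPM with scrambled oligonucleotide, far under TTN. In the scrambled oligonucleotide controls it split like TTN, with 3.83 CPM on average in replicates 1 and 2 and 16.3 CPM in replicates 3 and 4. Adding its counts to TTN left the TTN change at 0.19 with overexpression and -0.48 with knockdown. TTN-AS1 counts were only 0.0926% to 0.458% of TTN counts, so this sum could hardly move the value. The sum does not measure antisense reads within the shared exon bases. INHA, which overlaps the OBSL1 locus on the other strand with no shared exon base in GENCODE 29, stood at 23.2 CPM in the GapmeR library of replicate 1, where OBSL1 was also highest, against 2.07 to 3.75 CPM in the other GapmeR libraries. Its part in the OBSL1 value was not tested. Further genes that share exon bases with TTN on the opposite strand cover 0.255% to 1.65% of them each. Annotated antisense transcripts share 4.24% and 1.49% of the exon bases of MYOM3 and 2.84% of those of OBSL1. They share 2.05% of those of SPEG, 1.17% of those of MYOM1 and none of MYOM2 and ALPK3.

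The members differ in the properties that count data can follow. The GC content of the longest transcript was 44.1% in TTN, 49.3% in MYOM1 and 53.4% in MYOM2. It was 56.3% in MYOM3, 57.4% in ALPK3 and 66.5% in both OBSL1 and SPEG. When each library was offset for gene length and GC content, the overexpression change stayed past the cutoff for MYOM2 alone (0.43, unadjusted p = 0.0015 in edgeR). OBSL1 was then at 0.09 (unadjusted p = 0.15), MYOM1 at 0.10 (unadjusted p = 0.055) and MYOM3 at 0.56 (unadjusted p = 0.10), so that 1 of 7 members passed in place of 4. With knockdown, MYOM1 (-0.56, unadjusted p = 0.012) and MYOM2 (-0.79, unadjusted p = 0.013) passed under the same offsets. The knockdown value of TTN was 0.04 under these offsets and 0.04 when the offsets followed the span of the gene on the genome, against -0.48 without offsets. The difference between sets remained past the cutoff for TTN under both kinds of offset (-0.70, unadjusted p = 0.0081, and -1.48, unadjusted p = 2.6e-05) and for SPEG (-0.77, unadjusted p = 0.017, and -1.42, unadjusted p = 8.9e-05). OBSL1 no longer passed under the length and GC offsets (-0.44, unadjusted p = 0.12), nor MYOM1 under the span offsets (0.49, unadjusted p = 0.11).

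**Figure D4:**
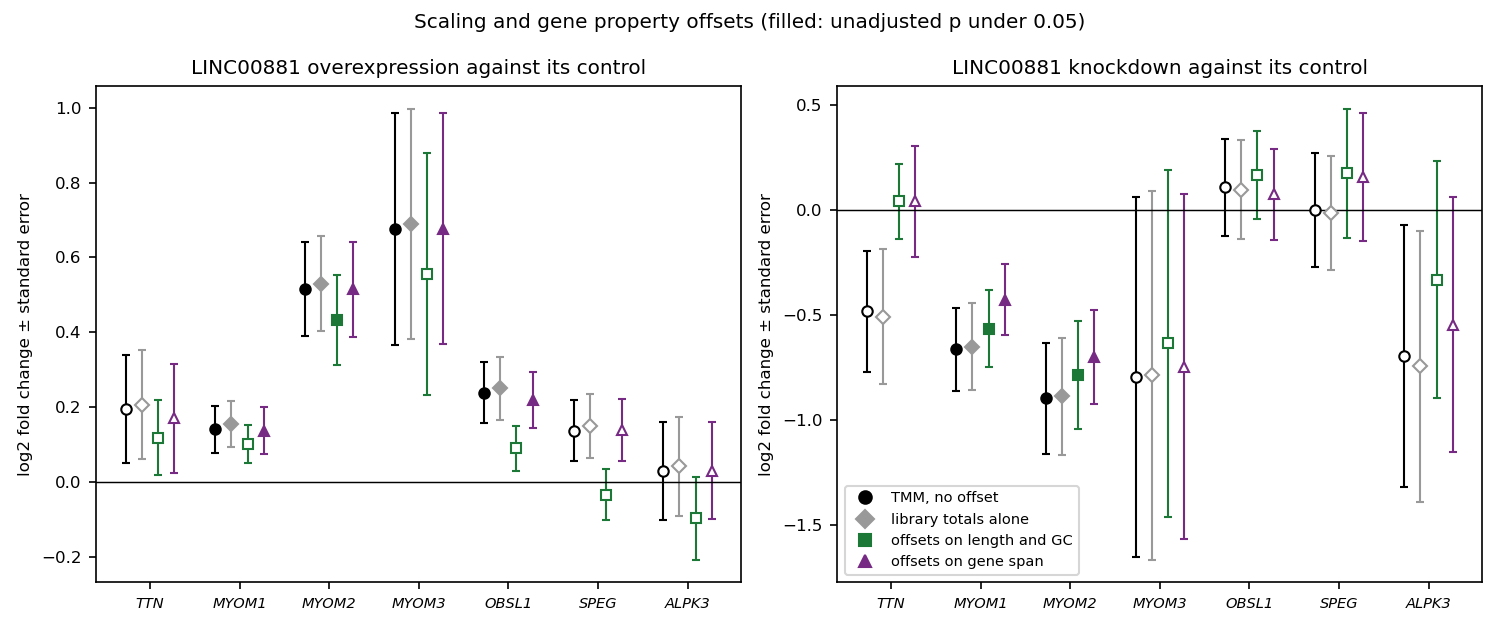
Log2 fold change with its standard error (vertical axis) of each gene with LINC00881 overexpression (left panel) and knockdown (right panel), each against its own control, under TMM scaling, library totals alone, offsets on gene length and GC content and offsets on gene span; filled symbols passed the unadjusted cutoff. MYOM2 passed under all 4 settings in both panels, and MYOM1 under all 4 with knockdown, while the TTN value with knockdown moved to near 0 under either offset.

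Genes of the structures around the members were counted from lists chosen with earlier results of these data known. Of 10 listed thick filament genes, 9 were tested. With overexpression 3 rose and 1 fell, among them the atrial-type alpha myosin heavy chain MYH6 (0.36), myosin-binding protein C MYBPC3 (0.36), MYH7B (0.32) and the ventricular light chain MYL2 (-0.25). With knockdown 3 fell and 0 rose, MYH6 (-0.59) and the light chains MYL4 (-0.37) and MYL7 (-0.37). In replicates 1 and 2 and in replicates 3 and 4, MYH6 changed by -0.57 and -0.62, and MYL4 by -0.60 and -0.17. MYL7 changed by -0.77 and 0.04. MYH7B, not called over all 8 libraries, changed by 0.71 and -2.16. The list's median was 0.15 with overexpression and -0.37 with knockdown. The same background shares apply to these and the following counts.

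Among 7 SPEG substrates and triad genes, overexpression was followed by a rise in 3, the ryanodine receptor RYR2 (0.17), the calcium pump ATP2A2 (0.15) and the junctional protein JPH2 (0.14), and with knockdown RYR2 fell (-1.10). Of the 15 genes of M-band and thick filament assembly, 5 rose and 1 fell with overexpression, including the glycolytic enzyme PFKM (0.19), CUL7 (0.22), the myosin chaperone UNC45B (0.15), ENO3 (0.20) and KLHL41 (-0.24). CCDC8, which acts with OBSL1 and CUL7, was the remaining one that rose. With knockdown the muscle enolase ENO3 rose (0.49), and FBXW8 (-0.72), a partner of CUL7, and the titin-binding CCDC141 (-0.68) fell. CCDC141 shares 138 exon bases with TTN on the same strand.

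Of the 17 titin I-band and M-line partners, 15 were tested with overexpression, where 0 rose and 3 fell, the muscle LIM protein CSRP3 (-0.21), the stretch-responsive ankyrin repeat protein ANKRD1 (-0.22) and the chaperone CRYAB (-0.14). All 17 were tested with knockdown, where FHL2 fell (-1.12) and the autophagy receptor SQSTM1 (0.98) and ANKRD1 (0.74) rose. Among the kinase relatives KALRN rose with overexpression (0.20) and fell with knockdown (-0.52), and ALPK2, an alpha-kinase like ALPK3, fell with knockdown (-0.51). Of 13 titin splicing regulators, PTBP2 fell with overexpression (-0.18), and with knockdown PTBP1 rose (0.58) and CELF2 fell (-0.36). In the same sets, PTBP1 changed by 0.86 and 0.28, and CELF2 by -0.61 and -0.14. Values in parentheses are log2 fold changes over all libraries of an experiment that passed the unadjusted cutoff in edgeR. In those edgeR comparisons each of these partner genes had an adjusted p of 0.24 or more. Isoforms of titin were not measured in gene counts.

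Summed levels of cell type markers moved with some of the groups. The 10 cardiomyocyte markers summed to 24800 to 26200 CPM with LINC00881 plasmid and 21800 to 25900 with control plasmid, with 4 of 10 higher, and to 13600 to 17900 CPM with GapmeR and 17300 to 22800 with scrambled oligonucleotide, with 4 of 10 lower. The 6 smooth muscle markers summed to 740 to 848 CPM with LINC00881 plasmid, against 619 to 740 with control plasmid, with 3 of 6 called higher, and to 281 to 1270 CPM with GapmeR, against 473 to 1040 with scrambled oligonucleotide. The 7 fibroblast markers summed to 302 to 320 CPM with LINC00881 plasmid, against 275 to 295 with control plasmid, and to 103 to 279 CPM with GapmeR, against 94.4 to 196 with scrambled oligonucleotide. The 9 skeletal muscle markers summed to 16.1 to 18.5 CPM with LINC00881 plasmid, against 13.1 to 16.6 with control plasmid, and to 48.6 to 100 CPM with GapmeR, against 67.7 to 101 with scrambled oligonucleotide. The 5 endothelial markers summed to 219 to 238 CPM with LINC00881 plasmid, against 190 to 221 with control plasmid, with KDR, the 1 tested, called higher (0.17). The 3 proliferation markers summed to 405 to 415 CPM with LINC00881 plasmid, against 393 to 444 with control plasmid, and to 114 to 294 CPM with GapmeR, against 99.2 to 188 with scrambled oligonucleotide. Of the hepatic or endodermal markers ALB was called lower with knockdown (-2.48), where the 6 summed to 51.4 to 156 CPM with GapmeR and 100 to 164 with scrambled oligonucleotide. None of the 2 or 3 epicardial and 2 pluripotent markers tested was called in either experiment. Their part in the changes of MYOM1, MYOM2, MYOM3 and OBSL1 was not tested. In bulk RNA fewer cardiomyocytes and less of a transcript per cardiomyocyte cannot be told apart.

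The genes most like 6 of the members were found by the mean of the Pearson r within each experiment, over 8 libraries each and 8517 genes. The points share libraries, depth and scaling, and the values are a description. MYOM1 was closest to LDB3, which encodes a Z-disc protein (mean r 0.96), then to the L-type calcium channel gene CACNA1C (0.94) and ADAMTS9 (0.94). MYOM2 had CACNA1C (0.94), ADAMTS9 (0.90) and the sterol enzyme gene LSS (0.89), sharing 2 of its 3 genes with MYOM1. TTN was closest to DST (0.94), ZZEF1 (0.93) and TRRAP (0.91), and OBSL1 to MYBPC3 (0.92), NISCH (0.91) and PLXNB2 (0.89). SPEG was closest to CIDECP1 (0.94), KLHDC8B (0.91) and SPPL2B (0.90), and ALPK3 to CASZ1 (0.89), EXTL3 (0.89) and PCNT (0.86). None of the genes named here for likeness was itself a member.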

How the data were processed

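Total RNA of the 16 libraries was prepared with a stranded kit and sequenced as paired reads. The authors aligned the reads to Gencode v38 with STAR 2.7.3a and deposited raw counts per gene symbol, which the table's name ascribes to unstranded counting with featureCounts. All 16 count columns were used. Each comparison was fitted with edgeR 4.0.16 (R 4.3.3; TMM scaling, filterByExpr, quasi-likelihood F-test, 2-sided) on the whole table, with Benjamini-Hochberg adjustment. The knockdown sets were compared in a fit of group by set, and ratios (counts plus 1) by exact permutation tests. Fitting was tested on simulated data. Gene coordinates, lengths and GC content came from GENCODE 29 (GRCh38), which matched 67.7% of symbols with 94.7% of genes tested in the overexpression and 89.1% in the knockdown experiment. The alternatives were DESeq2 1.42.0, limma-voom (limma 3.58.1), other scalings, filters, offsets (splines with 5 degrees of freedom) and the omission of single libraries. No pair of libraries agreed within sampling noise (smallest chi-square per degree of freedom 1.94). The members and lists were chosen with earlier results of these data known. All 7 members are named, and from each list up to 4 genes per comparison past the cutoff with the smallest p, and those past it in both comparisons. The likeness search took genes with a mean of at least 10 CPM in each experiment, and its result for MYOM3 is not reported here. The methylation arrays and other assays of the study were not analysed here.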

Additional observations from a re-analysis of the deposited data

Results flagged for a closer look

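In each of 28 combinations of gene and group, the highest and the lowest of the 4 libraries were examined for a large gap to the rest. TTN in LINC00881 knockdown replicate 1, at 2028 CPM, stood apart from the other 3 knockdown libraries, which lay at 2486 to 2560 CPM. About 1 in 20 such groups is expected to show such a gap by chance.

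Knockdown effects that differed between replicates 3 and 4 and replicates 1 and 2 were those of TTN (-1.03), OBSL1 (-0.95), SPEG (-1.35), ALPK3 (-2.62) and MYOM1 (0.73), as differences of log2 fold changes in the group by set fit of edgeR. TTN and SPEG also passed after adjustment over all genes. The effects of overexpression and knockdown differed for MYOM1 (0.80) and MYOM2 (1.41), neither after adjustment.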

How the results depend on the processing

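The number of members called with overexpression was 4. It was 1 (MYOM2) with all 16 libraries in 1 fit and also 1 when offsets followed gene length and GC content, and it ranged between 2 and 5 when 1 library was left out, with 2 calls without LINC00881 overexpression replicate 2, 3 or 4. Other settings gave 3 to 5. With knockdown the count was 2 under each of 11 other settings and 2 to 3 without 1 library. MYOM2 passed the cutoff in every setting of both experiments, and MYOM1 in every setting with knockdown. The members that differed between knockdown sets numbered 5, with 4 to 6 under other settings and 2 to 6 without 1 library; offsets on gene span, library totals alone and the omission of single libraries were added for this result after the data were seen. Members whose overexpression and knockdown effects differed numbered 2, but 4 with limma-voom, which added OBSL1 and SPEG, and 2 to 3 without 1 library.

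Libraries with the same replicate number correlated at -0.086 to 0.122 (overexpression) and 0.062 to 0.159 (knockdown) in their deviations from the group means, so the numbers were not treated as pairs. With the replicate number as a block, 4 members were called with overexpression, with TTN gained (0.22, unadjusted p = 0.024 in edgeR) and MYOM1 lost (unadjusted p = 0.058), 2 with knockdown, 6 between sets and 3 between the effects. Counts of MYOM3, at 2 to 91 per library, limit what can be said of that gene, and with 4 against 4 libraries no ratio can go below p = 0.0286 in the exact permutation test.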
